A study of Mus musculus with 4 samples.

Results

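The genes described here encode 10 surface molecules through which endothelial cells hold or pass leukocytes: Vcam1, Icam1, Icam2, Sele, Selp, Mcam, Alcam, Podxl, Cd47 and Cd99l2. They were picked by gene symbol from the 21578 genes in the deposited tables; the rule uses no measured value, but it was set with earlier results of these data known. 9 of the 10 had an entry in at least 1 table and 8 were abundant enough to be tested. RNA came from brain endothelial cells of C57BL/6 mice at postnatal day 0 and was sequenced from 2 Pd1fl/fl and 2 Pd1cKO-Tie2 libraries. In both genotypes Pd1, the gene of the inhibitory receptor PD-1 (symbol Pdcd1), carries loxP sites. In Pd1cKO-Tie2 mice a Tie2-Cre transgene, which is active in endothelial cells and also in blood and some myeloid cells, removes the floxed segment. Cells were labelled for CD31 and CD45 and sorted, but the gate, the number of animals behind a library and their sex are not stated in the sources used here.

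A leukocyte leaves the blood in steps. Selectins catch it in flow, immunoglobulin-type molecules such as ICAM1 and VCAM1 bind its activated integrins and arrest it, and junctional molecules such as CD99L2 take part in its passage between endothelial cells. In the healthy brain this traffic is sparse, endothelial ICAM2 is present at rest, and VCAM1, ICAM1 and E-selectin are known as genes that inflammatory cytokines induce through NF-kappaB.

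The total count was between 13714374 and 24146115 per library, the highest in Pd1cKO-Tie2 replicate 1. Counts of Pdcd1 itself were 32 in Pd1fl/fl replicate 1 and 0 in each of the other 3 libraries. Pd1fl/fl replicate 2 thus had the same count as both Pd1cKO-Tie2 libraries, and Pdcd1 does not tell the genotypes apart here. Which cells the 32 counts came from was not tested. Pd1fl/fl replicate 1 stood apart by its neutrophil transcripts, whose summed level over 8 markers was 913.7 TMM-scaled CPM against 1.32 to 55.5 in the other libraries. Xist, a transcript of female cells, was at 0 counts in both Pd1fl/fl libraries and at 6706 and 378 counts in replicates 1 and 2 of Pd1cKO-Tie2. A difference of sex therefore cannot be told apart from one of genotype for any gene compared below, Vcam1 included. Levels of single genes are given as TMM-scaled CPM, that is, counts divided by the library's total after edgeR's TMM scaling between libraries and expressed as CPM.

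Per kilobase of exon, the molecules spanned a wide range of abundance. Podxl was the highest, with a mean level of 84.3 CPM per kb over the 4 libraries and a range of 77.2 to 92.3, above 96.7% of the tested genes. Cd47 followed at 41.8 CPM per kb, Icam2 at 27.8, Icam1 at 25.0, Cd99l2 at 16.0 and Mcam at 14.4. The lowest of the tested molecules were Alcam at 5.15 and Vcam1 at 4.03 CPM per kb, and Vcam1 stood above 51.2% of the tested genes. Some neighbouring pairs could not be ordered beyond their spread, since the ranges over the libraries overlapped for Icam2 and Icam1, for Cd99l2 and Mcam, and for Alcam and Vcam1. Podxl and Cd47 did not overlap, and neither did Cd47 and Icam2, Icam1 and Cd99l2, or Mcam and Alcam. Both selectins lay below all of them: the mean level of Sele was 0.182 CPM per kb, and Selp had no entry in any table.

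**Figure D1:**
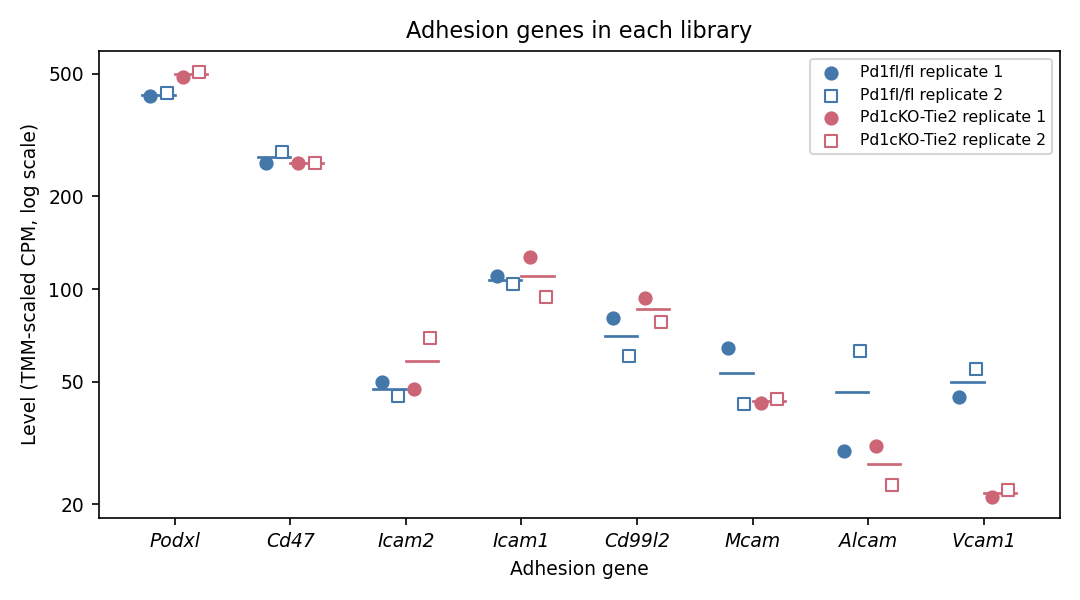
Level of the 8 tested adhesion genes in each library, in TMM-scaled CPM on a log axis, ordered from left to right by level per kilobase; filled circles are replicate 1, open squares replicate 2, and short lines the genotype means. The Pd1cKO-Tie2 libraries lie below both Pd1fl/fl libraries for Vcam1 (21.2 and 22.2 against 44.6 and 55.2) and above both for Podxl, and the genotypes overlap for the other 6 genes.

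The comparison of the genotypes asks which transcripts of brain endothelial cells differ when Pd1 is deleted with Tie2-Cre. Vcam1 was the only 1 of the 8 tested molecules past the study's criterion of a fold change of at least 2 with a p of 0.05 or less, and it was lower in Pd1cKO-Tie2. No molecule was higher past the criterion. Over all 15909 tested genes 4.02% passed the criterion and 2.61% passed it in the lower direction. After Benjamini-Hochberg adjustment across the whole table edgeR called 0 genes at 0.05, none of the molecules among them, with 1016 genes under 0.05 before adjustment. limma-voom also called 0 genes, and DESeq2 called 116 on the same genes, with 0 of the molecules. The criterion therefore rests on unadjusted p-values. The median log2 fold change was -0.0066 over the 8 molecules and -0.0038 over all tested genes, with 4 molecules above 0 and 4 below.

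Vcam1 encodes the endothelial ligand of the leukocyte integrin formed by Itga4 and Itgb1. The gene lies on the minus strand of chr3:116109949-116129688 (GRCm38), with 10 merged exons. Its level was 44.6 and 55.2 CPM in the Pd1fl/fl libraries, from 643 and 783 counts, and 21.2 and 22.2 CPM in the Pd1cKO-Tie2 libraries, from 506 and 303 counts. Both Pd1cKO-Tie2 libraries were thus lower than both Pd1fl/fl libraries, and the genotypes did not overlap. The genotype means were 49.9 ± 7.46 and 21.7 ± 0.719 CPM (SD, n = 2 each), a 2.30-fold lower level (log2 fold change -1.20, SE 0.28, 95% interval -1.90 to -0.50). By edgeR's quasi-likelihood test p was 0.00586 and the adjusted p was 0.735, which ranked Vcam1 as gene 83 of those tested. The libraries of 1 genotype differed by 1.24-fold in Pd1fl/fl and 1.05-fold in Pd1cKO-Tie2, less than the difference between the genotypes. In bulk samples fewer cells that carry a transcript and less of it per cell cannot be told apart. In the annotation, 61 bases of Vcam1 exon overlap Gm43109 on the other strand, and whether the counting used strand is not given in the sources used here.

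Vcam1 kept its direction and stayed past the criterion in 13 of 13 other ways of testing or scaling the counts or leaving out a library. Its log2 fold change was -1.34 without Pd1fl/fl replicate 1, the library with the neutrophil transcripts, and -1.04 without Pd1fl/fl replicate 2. The adjusted p stayed at 0.0965 or above in all 13, the lowest being DESeq2's on the same genes. Alcam, plotted beside it, changed far more with the libraries used.

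**Figure D2:**
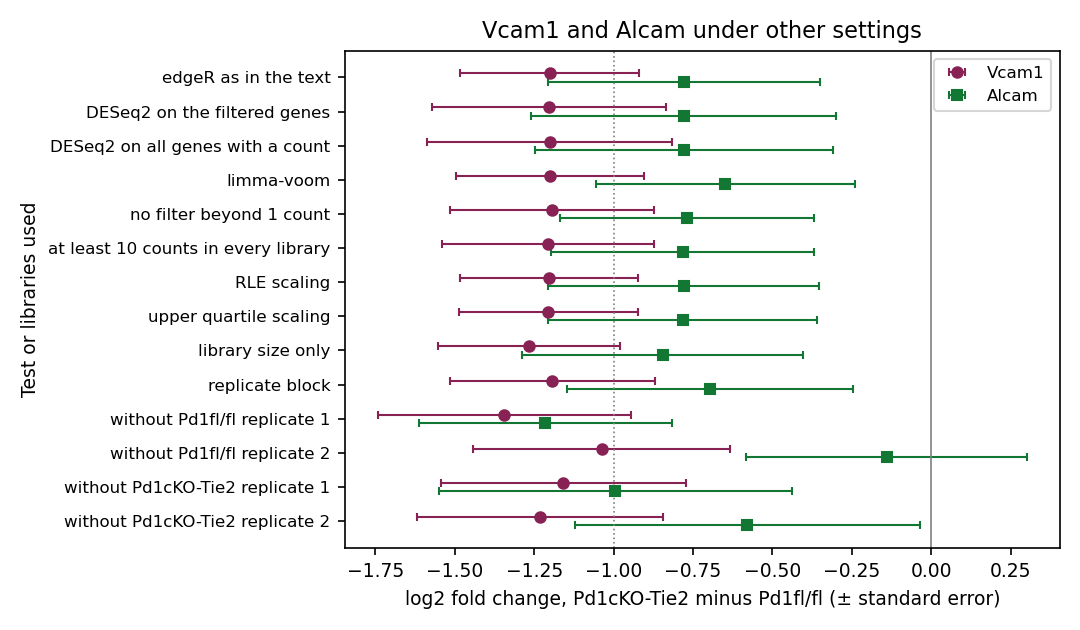
log2 fold change of Vcam1 (circles) and Alcam (squares), Pd1cKO-Tie2 minus Pd1fl/fl, with its standard error, by edgeR as in the text and under 13 other settings; the dotted line marks a 2-fold lower level. Vcam1 stays between -1.34 and -1.04, left of the dotted line in every setting, and Alcam moves between -1.21 and -0.14.

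Icam1, the ligand of the leukocyte integrins that contain Itgb2, lies on the plus strand of chr9:21015985-21028817. Its level was 109.9 and 104.0 CPM in the Pd1fl/fl libraries, against 127.4 and 93.9 CPM in Pd1cKO-Tie2. The Pd1cKO-Tie2 libraries lay on either side of the Pd1fl/fl libraries, so the genotypes overlapped. The log2 fold change was 0.049 (SE 0.22, 95% interval -0.50 to 0.60) with an adjusted p of 1.000 by edgeR. Icam1 shares 511 exon bases with Gm47079 on the other strand, the longest overlap among the tested molecules.

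Icam2, a shorter relative of Icam1 that binds the Itgal-containing integrin and marks resting endothelium, lies on the minus strand of chr11:106377656-106388075. Its level was 49.9 and 44.9 CPM in the Pd1fl/fl libraries, against 47.3 and 69.4 CPM in Pd1cKO-Tie2. Only Pd1cKO-Tie2 replicate 2 was above both Pd1fl/fl libraries, and the log2 fold change of 0.30 (SE 0.28, 95% interval -0.40 to 1.00, adjusted p = 1.000 by edgeR) did not pass the criterion. These ligands can also be set against each other within a library. There were 2.46 and 1.89 times as many Icam1 as Vcam1 counts in the Pd1fl/fl libraries and 6.01 and 4.23 times as many in the Pd1cKO-Tie2 libraries. That ratio needs no scaling between libraries, and its genotypes did not overlap. It restates the lower Vcam1 level beside Icam1, whose genotypes overlapped, and is not a separate result. The ratio of Icam2 to Icam1 counts was 0.454 and 0.432 in Pd1fl/fl, against 0.371 and 0.739 in Pd1cKO-Tie2, and did overlap.

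The selectins were barely detected. Sele, the cytokine-induced E-selectin on the plus strand of chr1:164048234-164057677, had 29 counts (2.12 CPM) in Pd1cKO-Tie2 replicate 2 and 0 in the other libraries. Set against the limit of 3 counts that a count of 0 allows per library, up to 0.211 CPM in Pd1fl/fl, the level in that library was at least 10.1-fold higher than in a Pd1fl/fl library. Pd1cKO-Tie2 replicate 1 was not listed for Sele, which leaves at most 4 counts there, so the difference rests on 1 library, and edgeR's filter on low counts left Sele out of the test. Selp, the P-selectin that endothelial cells and platelets store for release, lies beside it on chr1:164115264-164150026. It had no entry for any library, which under the listing rule of the tables means at most 4 counts in each. Expression of Selp was not detectable at this depth. These limits cover counting error only.

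Mcam (CD146), an adhesion molecule of endothelial cells and pericytes, lies on the plus strand of chr9:44134469-44142727. It had 64.2 and 42.3 CPM in the Pd1fl/fl libraries, against 42.8 and 44.0 CPM in Pd1cKO-Tie2. Pd1fl/fl replicate 1 alone was high, and the other 3 libraries lay close together. The log2 fold change was -0.30 (SE 0.29, 95% interval -1.03 to 0.43, adjusted p = 1.000 by edgeR), and without Pd1fl/fl replicate 1 it was 0.041. The summed pericyte and smooth muscle markers were highest in the same library, at 5583 CPM against 3606 in Pd1fl/fl replicate 2 and 3694 to 3710 in Pd1cKO-Tie2. Most of that sum was Rgs5, at 4916 CPM. Rgs5, Pdgfrb, Kcnj8, Abcc9 and Notch3 were highest there. Cspg4 was highest in Pd1cKO-Tie2 replicate 1, Acta2 in Pd1fl/fl replicate 2 and Tagln in Pd1cKO-Tie2 replicate 2. The part of these cells in the Mcam level was not tested.

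Alcam (CD166), on the minus strand of chr16:52248996-52454074, binds itself and the T cell receptor CD6 and is also made by neurons. Its level was 29.8 and 62.8 CPM in the Pd1fl/fl libraries, against 30.9 and 23.1 CPM in Pd1cKO-Tie2. Here Pd1fl/fl replicate 2 alone was high, and the other Pd1fl/fl library lay between the Pd1cKO-Tie2 libraries. The means of 46.3 ± 23.3 and 27.0 ± 5.53 CPM (SD, n = 2 each) differed by 1.72-fold, less than the 2.11-fold difference between the Pd1fl/fl libraries. The log2 fold change of -0.78 (SE 0.43, 95% interval -1.84 to 0.28, adjusted p = 0.912 by edgeR) did not pass the criterion. It did without Pd1fl/fl replicate 1, at -1.21 (adjusted p = 0.746 by edgeR), and was -0.14 without Pd1fl/fl replicate 2. The summed neuron markers were also highest in Pd1fl/fl replicate 2, at 1296 CPM against 958 to 1133 in the other libraries. Of these markers Stmn2, Dcx and Map2 were highest there. Tubb3, Snap25, Neurod6 and Gap43 were highest in Pd1cKO-Tie2 replicate 1, and Rbfox3 in Pd1fl/fl replicate 1. The leukocyte (1630 CPM), microglia and macrophage (2362 CPM) and radial glia (1122 CPM) sums were likewise highest in Pd1fl/fl replicate 2. The part of any of these cells in the Alcam level was not tested.

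Podxl encodes podocalyxin, a negatively charged sialomucin of the luminal endothelial surface that can carry selectin ligands. On the minus strand of chr6:31519488-31563981, it was the most abundant of the molecules both by counts and per kilobase. Its level was 423.6 and 432.5 CPM in the Pd1fl/fl libraries, against 488.7 and 506.8 CPM in Pd1cKO-Tie2. Both Pd1cKO-Tie2 libraries were higher than both Pd1fl/fl libraries, with means of 497.7 ± 12.8 against 428.0 ± 6.33 CPM (SD, n = 2 each). The difference was 1.16-fold (log2 fold change 0.22, SE 0.13, 95% interval -0.10 to 0.53) and did not pass edgeR's test (adjusted p = 0.925). Vcam1 and Podxl were the 2 molecules whose genotypes did not overlap, against 35.8% of all tested genes, of which 18.1% were lower and 17.7% higher in Pd1cKO-Tie2. Cd47 joined them under RLE and upper quartile scaling, in both DESeq2 fits and when every library had to hold 10 counts or more, and Cd47 and Mcam joined them with library size only. There were 9.50 and 7.84 times as many Podxl as Vcam1 counts in the Pd1fl/fl libraries and 23.1 and 22.8 times as many in the Pd1cKO-Tie2 libraries. Because Podxl was higher and Vcam1 lower without overlap, this ratio had to separate the genotypes and adds no further result.

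Cd47, the ubiquitous ligand of the phagocyte receptor Sirpa and receptor of thrombospondin, had the smallest relative spread of the tested molecules over all 4 libraries. Within Pd1fl/fl, Podxl and Icam1 varied less. It lies on the plus strand of chromosome 16, and its start in the tables differs from that in GENCODE M21. The level was 257.0 and 278.9 CPM in the Pd1fl/fl libraries, against 256.0 and 257.2 CPM in Pd1cKO-Tie2. The genotypes overlapped, with a log2 fold change of -0.063 (SE 0.14, adjusted p = 1.000 by edgeR). Its 95% interval, -0.42 to 0.29, lay well within a 2-fold change in either direction.

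Cd99l2, a relative of CD99 that takes part in the last step of leukocyte passage, lies on the minus strand of chrX:71420060-71492849. Its level was 80.4 and 60.7 CPM in the Pd1fl/fl libraries, against 93.4 and 78.4 CPM in Pd1cKO-Tie2. The genotypes overlapped because Pd1fl/fl replicate 1 was above Pd1cKO-Tie2 replicate 2. The log2 fold change was 0.28 (SE 0.24, 95% interval -0.31 to 0.88, adjusted p = 0.991 by edgeR). The gene is X-linked, and Xist was counted in the Pd1cKO-Tie2 libraries only. The part of sex in the Cd99l2 level was not tested and cannot be told apart from that of genotype here.

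For the 7 tested molecules that missed the criterion, the intervals describe the size of a difference between these libraries. Those of Icam1 (0.708- to 1.51-fold), Podxl (0.935- to 1.45-fold) and Cd47 (0.748- to 1.23-fold) lay within a 2-fold change in both directions, and did so in all 11 edgeR fits, including those without 1 library. That of Cd99l2 (0.804- to 1.84-fold) did so in 9 of the 11, and its upper end on the log2 scale was 1.24 without Pd1fl/fl replicate 1 and 1.22 without Pd1cKO-Tie2 replicate 2. Those of Icam2 (up to 2.00-fold, just at the limit), Mcam (down to 0.491-fold) and Alcam (down to 0.280-fold) did not with all 4 libraries. Over the 11 edgeR fits, the interval lay within a 2-fold change in 5 for Icam2, in 2 for Mcam and in 0 for Alcam. Each interval given here as a fold range is a 95% interval for a single gene from the 4 libraries, whose spread may be technical. Xist also differed between the genotypes, and the intervals do not take this into account. Beside these, the interval of Vcam1 ran from 0.268- to 0.705-fold.

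**Figure D3:**
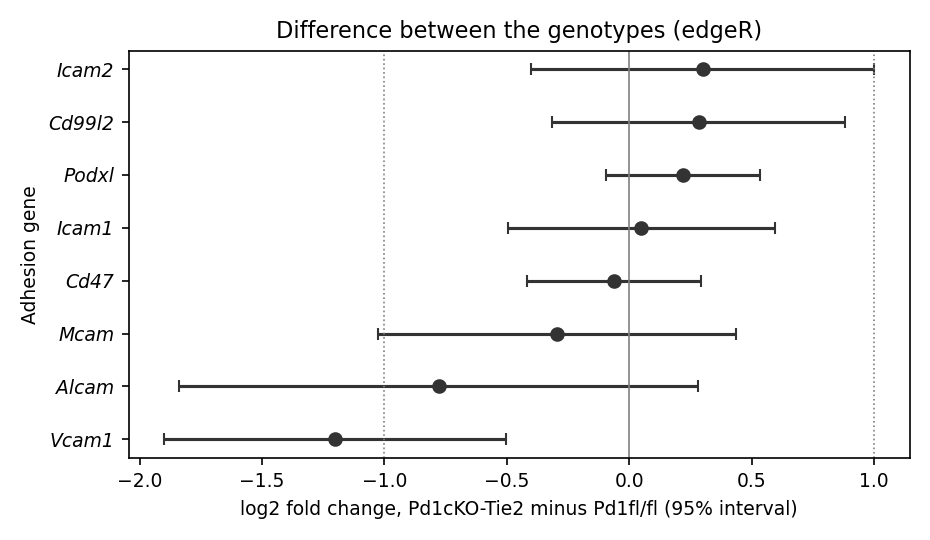
log2 fold change of each tested adhesion gene, Pd1cKO-Tie2 minus Pd1fl/fl, by edgeR's quasi-likelihood test with its 95% interval; dotted lines mark a 2-fold change. The interval of Vcam1 (-1.90 to -0.50) lies wholly below 0, and those of the other 7 genes cross 0.

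RNA of the partners that these molecules bind was also present in these libraries, and which cells it came from was not tested. Of 15 receptors and ligands that bind the molecules, 14 were tested, 2 were lower past the criterion and 0 were higher. The median log2 fold change of the 14 was -0.75, and 8 were lower without overlap between the genotypes and 1 higher. The counts for this list and those that follow are to be read against the shares over all tested genes given above, 4.02% past the criterion, 18.1% lower and 17.7% higher without overlap. Itgam, the integrin subunit through which myeloid cells bind ICAM1, was at 11.7 and 17.3 CPM in the Pd1fl/fl libraries, against 3.10 and 4.98 CPM in Pd1cKO-Tie2 (log2 fold change -1.84, SE 0.58, adjusted p = 0.735 by edgeR). Cd44, a hyaluronan receptor that E-selectin can bind, was at 31.3 and 44.4 CPM in the Pd1fl/fl libraries, against 18.4 and 13.0 CPM in Pd1cKO-Tie2 (log2 fold change -1.26, SE 0.36, adjusted p = 0.735). Both Pd1cKO-Tie2 libraries were below both Pd1fl/fl libraries for these genes.

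The chains of the integrin that binds VCAM1 were both measured. Itga4, the subunit that gives the integrin its binding to VCAM1, was at 90.7 and 120.3 CPM in the Pd1fl/fl libraries, against 65.2 and 58.7 CPM in Pd1cKO-Tie2, with a log2 fold change of -0.77 (SE 0.23, adjusted p = 0.735 by edgeR) that missed the fold of 2. Its partner chain Itgb1, which endothelial cells also make, was the most abundant gene of the list and had a log2 fold change of 0.20 (SE 0.14, adjusted p = 0.956). Itgb7, the other chain that pairs with Itga4, had -0.99 (SE 0.64, adjusted p = 0.949) and was chosen after its values were seen. Sirpa, the receptor of CD47 on myeloid cells and neurons, had a log2 fold change of -0.68 (SE 0.20), beside the -0.063 of Cd47. Selplg, the selectin ligand PSGL-1 of leukocytes, had 72.3 and 67.6 CPM in the Pd1fl/fl libraries, against 28.3 and 46.2 CPM in Pd1cKO-Tie2 and missed the fold of 2; it was chosen after its values were seen. Cd6, the T cell partner of ALCAM, also chosen afterwards, had no entry in any table.

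Among 24 other endothelial adhesion and transmigration genes, 23 were tested, and Nectin3 alone passed the criterion, in the higher direction. Nectin3, which joins cells through other nectins, was at 10.5 and 5.99 CPM in the Pd1fl/fl libraries, against 23.7 and 16.3 CPM in Pd1cKO-Tie2 (log2 fold change 1.28, SE 0.49, adjusted p = 0.753 by edgeR). The median log2 fold change of the 23 genes was 0.27, and 13 were higher and 1 lower without overlap. The most abundant were Bsg (basigin, 0.41), Cd34 (0.21), a sialomucin related to Podxl, and Esam (0.27), a junctional immunoglobulin-type molecule, with their log2 fold changes in brackets. Vcam1 therefore went against the direction of most of these surface genes, though that contrast itself was not tested.

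Of 14 linker and adaptor proteins that tie the molecules to actin, 14 were tested and 0 passed the criterion. The median log2 fold change was 0.15, with 4 of the 14 higher and 2 lower without overlap, against 17.7% and 18.1% of all tested genes. The most abundant were the adaptor Sdcbp (0.12), the actin crosslinker Actn4 (0.17) and moesin, Msn (0.21), which anchors ICAM and VCAM1 tails. Linkers of podocalyxin, chosen after their values were seen, went opposite ways. Slc9a3r2 (NHERF2) was at 383 and 261 CPM in the Pd1fl/fl libraries, against 586 and 587 CPM in Pd1cKO-Tie2, whereas Ezr (ezrin) was at 92.4 and 95.9 CPM in the Pd1fl/fl libraries, against 47.5 and 59.3 CPM in Pd1cKO-Tie2. Neither reached a 2-fold change (log2 fold changes 0.86 and -0.82). Slc9a3r1, from the same list and also chosen afterwards, was at 108 and 107 CPM in Pd1fl/fl, against 95.1 and 63.9 CPM in Pd1cKO-Tie2. Its log2 fold change was -0.43.

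Of 10 enzymes that build selectin ligands, 8 were tested, 0 passed the criterion, and the genotypes overlapped for all 8. The median log2 fold change was 0.14, and the most abundant were St3gal6 (0.12), B4galt1 (-0.11) and Chst2 (0.17).

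The NF-kappaB pathway, which drives induction of Vcam1, Icam1 and Sele, was read from 20 genes, all tested. Il1r1, the interleukin-1 receptor, was higher past the criterion, at 8.25 and 12.4 CPM in the Pd1fl/fl libraries, against 25.7 and 21.8 CPM in Pd1cKO-Tie2 (log2 fold change 1.20, SE 0.40, adjusted p = 0.735 by edgeR), and 0 genes were lower. The median log2 fold change was -0.11, with 3 of the 20 higher and 6 lower without overlap, against 17.7% and 18.1% of all tested genes. Nfkbia, an inhibitor that is itself an NF-kappaB target and the most abundant gene of the list, had a log2 fold change of 0.10. Ikbkb, a kinase of that inhibitor, had 0.11, and the signal adaptor Traf6 had -0.50. In promoter windows of RefSeq (GRCm38.p6, 250 bases before to 50 after the start), found for 7 of the 10 molecules, the NF-kappaB consensus was matched in 0 of the 7 on either strand, against 8.46% of all 32851 windows. The ETS motif CCGGAAG was matched in 1 of the 7, Cd47, against 8.86% of all windows. Both are descriptions of letters in these windows, and Vcam1, Icam2 and Podxl had no window. With 7 molecules, a count of 0 cannot be told apart from the share over all windows. Sites that depart from the consensus would not be matched.

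**Figure D4:**
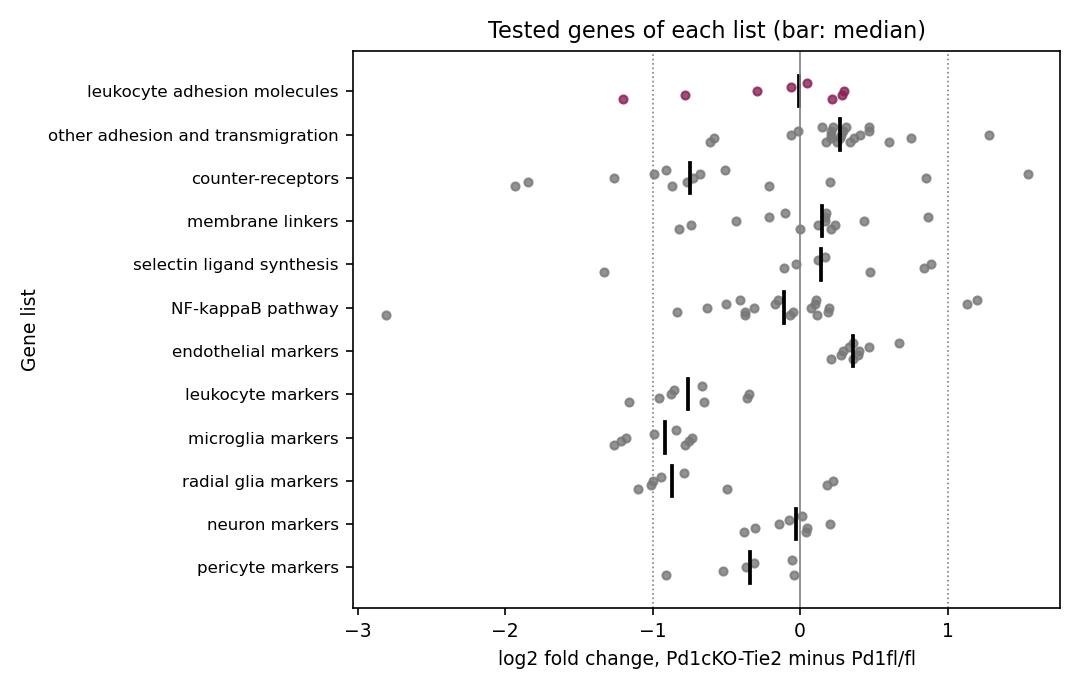
log2 fold change, Pd1cKO-Tie2 minus Pd1fl/fl by edgeR, of each tested gene in the adhesion lists and in 6 lists of cell type markers; bars are medians and dotted lines mark a 2-fold change. The 8 adhesion molecules spread on both sides of 0 around a median of -0.0066, while all 10 endothelial markers lie above 0 and all 8 leukocyte and all 8 microglia markers below 0.

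Markers of several cell types moved with the genotype in the same libraries as Vcam1. All 10 endothelial markers, led by Cldn5, Kdr and Tie1, had counts in every library, as the cell label calls for, and all 10 were higher in Pd1cKO-Tie2 without overlap, with a summed level of 8615 to 9468 CPM in Pd1fl/fl, against 11263 to 12097 CPM in Pd1cKO-Tie2, though 0 of 10 reached a 2-fold change. Vcam1 was lower while these markers, like Podxl, were higher. 7 of 8 leukocyte markers, led by Lcp1, Laptm5 and Coro1a, were lower without overlap, their sum being 1414.5 to 1630 CPM in Pd1fl/fl, against 840 to 1156 CPM in Pd1cKO-Tie2. The same held for 6 of 8 microglia and macrophage markers, led by Csf1r, C1qa and C1qb, of which Tmem119 passed the criterion, with sums of 1943 to 2362 and 716 to 1648 CPM. 5 of 8 radial glia and astrocyte markers, the most abundant being Slc1a3, Vim and Fabp7, were lower without overlap, 2 of them (Fabp7 and Hes5) past the criterion, with sums of 1046 to 1122 and 718 to 774 CPM. None of the markers in these lists was at 0 in a library. Vcam1 RNA is also made by some macrophages and by neural stem cells, and the part of these cells in its lower level was not tested. Counter-receptors such as Itgam and Selplg had the direction of both the leukocyte and the microglia and macrophage markers. The part of either kind of cell in their level was likewise not tested.

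Of 8 neutrophil markers 3 were tested, and Ngp and S100a8 were lower past the criterion, with a median log2 fold change of -5.05 over the 3. Ngp and S100a8 were at 413 and 36.8 CPM in Pd1fl/fl replicate 1 and at most 1.17 CPM in any other library, Mpo was at 168 CPM there and at 23.9, 53.5 and 0 CPM in the others, and Ltf was at 0 counts in the other 3 libraries. Of 8 pericyte and smooth muscle markers, led by Rgs5, Kcnj8 and Pdgfrb, 6 were tested, 0 passed the criterion and 2 were lower without overlap, with a median log2 fold change of -0.34. Pdgfrb was at 159 and 106 CPM in the Pd1fl/fl libraries, against 91.8 and 92.1 CPM in Pd1cKO-Tie2. Platelet markers (Itga2b, Pf4 and Treml1 the most abundant) summed to 124 to 132 CPM in Pd1fl/fl, against 110 CPM in Pd1cKO-Tie2, with 0 of 7 past the criterion. Erythroid markers, led by Hba-a1, Hbb-bs and Alas2, overlapped in sum (557 to 646 against 575 to 1070 CPM). So did fibroblast markers, led by Col1a2, Pdgfra and Dcn (34.7 to 83.0 against 30.9 to 55.1 CPM), and neuron markers, led by Dcx, Map2 and Neurod6 (958 to 1296 against 973 to 1133 CPM), with 0 genes past the criterion in each of these lists. Platelets store P-selectin, and Selp had no entry although Itga2b, a platelet and megakaryocyte integrin, was at 56.5 to 75.5 CPM.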

How the data were processed

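The authors deposited 4 tables, each with the read counts of 1 Pd1cKO-Tie2 and 1 Pd1fl/fl library, as whole numbers without normalization. Their scaled columns and columns of their own comparisons (fold changes, p-values) were not used. The submitters' processing notes name Bowtie2 2.2.3, TopHat2 2.0.12, HTSeq 0.6.0 and the build mm9, while 90.1% of the gene positions in the tables equal GENCODE M21 on GRCm38, the build used here. Exon lengths are of merged exons in GENCODE M21.

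The tables were joined to 21578 genes. In 2 tables, 10 broken lines were skipped in all, and 0 values of a library differed between its 2 tables. Genes with a count in just 1 library of a table appear there only from 5 counts on, and an unlisted gene was set to 0 (at most 4 counts). The number of Pd1cKO-Tie2 column 2 matches no sample label, which leaves this library with its genotype alone.

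Counts were tested in edgeR 4.0.16 under R 4.3.3 (quasi-likelihood F test) after filterByExpr (15909 genes) and TMM scaling, with no covariate. The common biological coefficient of variation was 0.610. Changed means a fold change of at least 2 with p of 0.05 or less, as in the study's methods, and adjusted p-values are edgeR's Benjamini-Hochberg values over all tested genes. Nothing says whether replicates came from separate animals, so p-values measure the spread between these libraries, which may be technical. The alternatives were DESeq2 1.42.0, limma-voom (limma 3.58.1), other filters and scalings, a replicate block, and leaving out each library. The script was tested on simulated counts. The molecules and lists were chosen with earlier results of these data known. Named genes are all 10 molecules and, of each other list, those past the criterion and the 3 with the highest mean level; others given with values are marked.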

Additional observations from a re-analysis of the deposited data

How the results depend on the processing

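The number of genes past the criterion was 640 and ranged from 445 with the column number as a replicate block to 936 with DESeq2 on all genes with a count, and from 689 to 877 when 1 library was left out. Vcam1 kept its direction and its call in all 13 alternatives. The replicate block gave it a log2 fold change of -1.19 (edgeR adjusted p = 0.996) and changed no call among the molecules. The labels share only 1 number between the genotypes, and deviations of same-numbered columns correlated at -0.026, so the block pairs nothing known. Molecules past the criterion numbered 1 to 2 when 1 library was left out, the second being Alcam. Molecules without overlap (2) numbered 3 with RLE or upper quartile scaling, DESeq2 and the strict filter, where 35.7% to 36.7% of all genes had none, 4 with library size only (35.8%), and 3 to 7 when 1 library was left out (66.6% to 68.1%), as fewer libraries overlap less. Directions turned for Icam1 with library size only (-0.0097) and without Pd1cKO-Tie2 replicate 1 (-0.18), Mcam without Pd1fl/fl replicate 1 (0.041) and Cd47 without Pd1fl/fl replicate 2 (0.00095). Leaving out 1 library gave ranges of -0.18 to 0.26 for Icam1, -0.56 to 0.041 for Mcam, -0.12 to 0.00095 for Cd47, 0.0015 to 0.56 for Icam2, 0.099 to 0.50 for Cd99l2 and 0.20 to 0.25 for Podxl. Past the criterion in the other adhesion lists were 4 genes, 8 with limma-voom and 2 to 7 when 1 library was left out, an alternative chosen after seeing the data; the cause was not tested. With the longest transcript in place of merged exons, 6 of 10 molecules kept their place, as Icam1 and Icam2, and Vcam1 and Alcam, changed places. Each list's median kept its sign under all 4 scalings. Scaling moved the median of all genes by less than 0.1 on the log2 scale. With 2 libraries per genotype, Sele, counted in 1 library only, could not be compared between the genotypes, and Selp was not detectable at this depth.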
